A study of Mus musculus with 65 samples.

Results

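Of the 65 arrays of the study, 48 measured tumours, and 15 of these came from mouse mammary tumours that grew in sham-treated hosts, 9 of them in wild-type hosts and 6 in hosts with 1 copy of Tgfb1. These 15 tumours, chosen by their titles, are compared here by host genotype. Each tumour developed from a fragment of BALB/c mammary tissue lacking p53, which was placed in the inguinal fat pad of a female BALB/c host whose own epithelium had been taken out at 3 weeks of age. Hosts were either TGFb1 heterozygotes or wild type, and all 15 had been sham-irradiated 3 days before the transplant. The other 33 tumours, 23 from wild-type and 10 from heterozygous hosts, came from irradiated hosts, at a dose that the labels used here leave out. In 1 of these 23 the title says irradiated and another label says sham. It was placed by its title, and counting it as a wild-type sham host left 0 genes past the threshold. The donor tissue carried the p53 loss in both groups, so the host genotype was the labelled difference between them. The tumour cells descend from the donor, and stroma, vessels and immune cells can come from the host. A tumour array reads both together. The sources used here do not give ages at tumour collection, the latency of each tumour or whether several tumours shared a donor. Trp53 itself was not analysed here.

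Transforming growth factor beta is secreted as a latent complex, released by integrins and proteases, and read by a pair of receptor kinases that activate the Smad transcription factors. In the mammary gland it restrains the growth of epithelium and drives fibroblasts to lay down matrix, and it also dampens immune cells. The host supplies the stroma around a transplanted epithelium, and the comparison asks whether tumours from hosts with 1 copy of Tgfb1 differ where no radiation was given.

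Values are the deposited log2 expression values, on which larger values mean more signal. Differences are given as heterozygous host minus wild-type host, with the standard error (SE) from limma, and tumours are named by the genotype of their host and their repeat number. A tumour is a mixture of cells, and fewer cells of a type cannot be told apart from less RNA per cell.

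No gene of the 12786 tested passed an adjusted p of 0.05 in limma, in either direction (0% called). The smallest adjusted p was 0.123, for Flrt1. At an unadjusted p under 0.05 there were 676 genes (5.29%), 361 higher in tumours of heterozygous hosts (2.82%) and 315 lower (2.46%), where chance alone gives 639. The median difference over all genes was 0.000628, with 50.1% of genes higher and 49.9% lower, and in irradiated hosts 50% lay on each side. Precision was limited by 6 against 9 tumours: the median SE was 0.209 and the median half-width of a 95% confidence interval was 0.42. In size, 154 genes differed by at least 1 and 12 genes by at least 2. The differences below are therefore descriptions of these tumours, none of which passed the adjusted threshold.

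Some tumours stood apart within their group, and this touches every list that follows. Wild-type tumour 5 had a mean of 11.73 over the endothelial markers, against at most 8.03 in the other wild-type tumours and 8.92 in the heterozygous ones. Wild-type tumour 6 had the lowest luminal epithelial mean, 7.25, and the highest skeletal muscle mean, 10.51. Luminal means were also low in wild-type tumour 5 (9.17) and heterozygous tumours 2 (9.56) and 6 (9.07), while the other 11 tumours lay between 10.94 and 11.76. Heterozygous tumour 3 had the lowest means of its group for fibroblast genes (9.14), macrophage genes (9.39) and endothelial genes (6.03). Signs of RNA quality moved with host genotype as well. The 3′ minus 5′ difference of the Gapdh control probe sets was 0.03 to 0.60 (median 0.12) in heterozygous and -0.09 to 0.14 (median 0.03) in wild-type tumours, and that of the b-actin control was 0.40 to 0.80 (median 0.58) against 0.36 to 0.51 (median 0.41). A larger 3′ excess is commonly read as shorter RNA. Its part in the differences below was not tested.

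**Figure D1:**
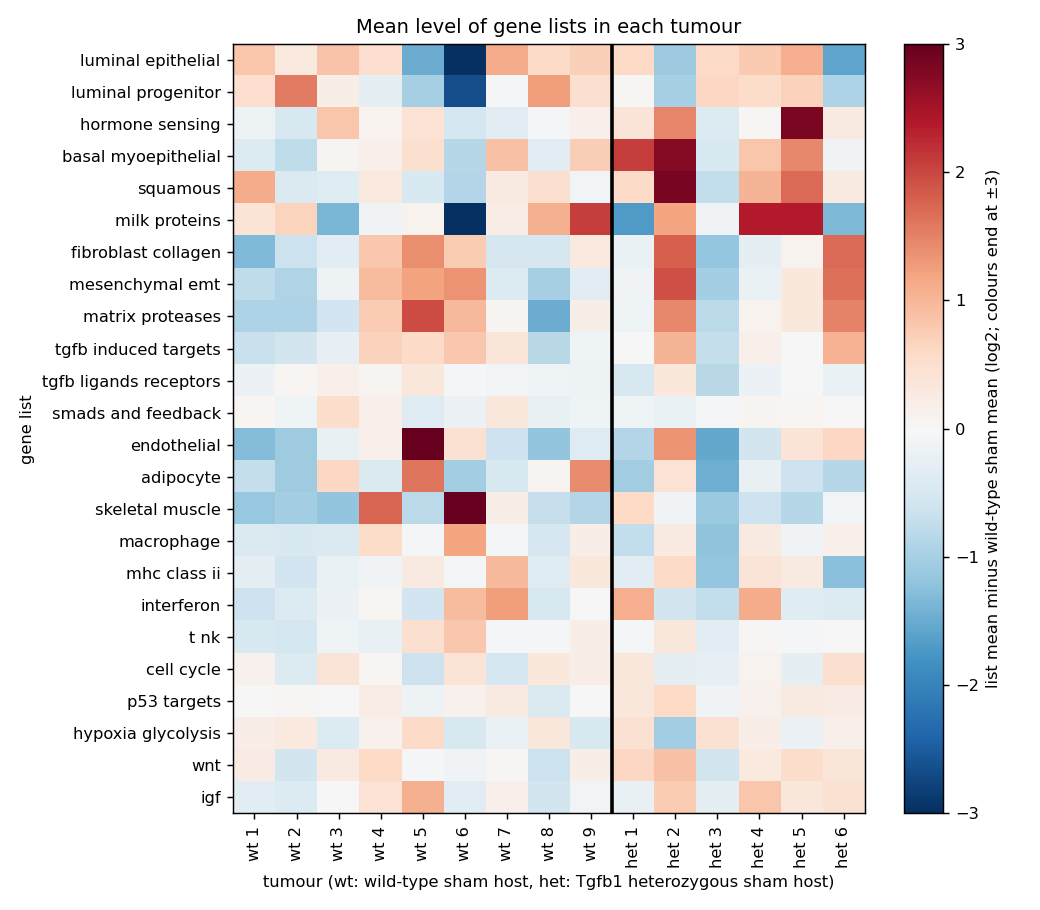
Mean level of gene lists (rows) in each of the 15 tumours (columns), as log2 difference from the mean of the 9 wild-type sham-host tumours, with colours ending at ±3. The basal row is warmest in heterozygous tumours 1, 2 and 5, the squamous row in 2 and 5, and the endothelial and skeletal muscle rows stand out in wild-type tumours 5 and 6.

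Tgfb1, the gene with 1 copy in the heterozygous hosts, was measured first. It lay at 8.08 to 11.33 (median 9.03) in the 9 wild-type tumours and at 6.47 to 9.10 (median 8.51) in the 6 heterozygous ones. The extremes were single tumours, wild-type tumour 5 at 11.33 and heterozygous tumour 3 at 6.47, and 2 of 6 heterozygous tumours lay below all wild-type tumours. Means were 9.18 ± 0.91 (SD, n = 9) and 8.23 ± 0.94 (SD, n = 6), a difference of -0.94 (SE 0.31). Its limma adjusted p was 0.872 and its unadjusted p 0.00396 in the fit of all 48 tumours, which borrows the smaller spread of the irradiated hosts (SD 0.41 and 0.34). An exact two-sided permutation test over the 15 sham-host tumours, with 5005 arrangements, gave p = 0.0579. Without wild-type tumour 5 and heterozygous tumour 3 the difference was -0.32 (exact permutation p = 0.216). The second Tgfb1 probe set, at a mean level of 5.30, differed by -0.07. In irradiated hosts the Tgfb1 difference was -0.23, and the interaction was -0.72 (limma adjusted p = 1, unadjusted p = 0.0678). The sources used here do not say which part of Tgfb1 the host allele lacks, and the donor epithelium reads into the same value.

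**Figure D2:**
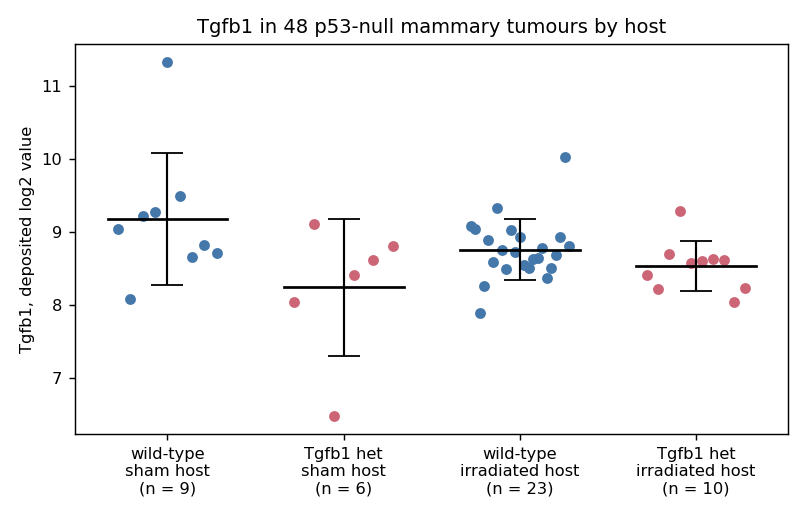
Tgfb1 in all 48 tumours by host group, in deposited log2 values, with each point a tumour and bars showing mean ± SD. The sham groups average 9.18 and 8.23 and overlap, and each holds 1 tumour far from the rest, at 11.33 and 6.47.

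Among 15 tested ligands, receptors and latency proteins of TGF-beta, 6 were higher and 9 lower in heterozygous hosts, with a median of -0.15 (-0.02 without wild-type tumour 5) and 0 past the adjusted threshold. Tgfb1 and Ltbp2 were the 2 members with an unadjusted p under 0.05, where 2.46% of all genes were lower at that p. Ltbp2, a matrix protein of the latent TGF-beta binding family, lay at 7.65 to 10.37 (median 9.33) in heterozygous and 8.91 to 11.53 (median 10.39) in wild-type tumours. 3 of 6 heterozygous tumours lay below all wild-type tumours. The difference was -1.14 (SE 0.49, limma adjusted p = 0.924), set against 0.58 in irradiated hosts. Thbs1, thrombospondin, which activates latent TGF-beta, differed by -0.68 (SE 0.38). Acvrl1, an endothelial receptor of the family, differed by -0.46 (SE 0.28), with wild-type tumour 5 at 8.79 and all other wild-type tumours at or below 6.29. Tgfb2, a second ligand, differed by 0.35 (SE 0.44) and was highest in heterozygous tumour 3, at 10.34, the tumour with the least Tgfb1.

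The Smad mediators and their feedback inhibitors differed little. Of 12 tested, 4 were higher and 8 lower, the median was -0.06, the range was -0.23 to 0.17, and 0 had an unadjusted p under 0.05. Smad2 and Smad3, which carry the receptor signal, differed by -0.23 (SE 0.14) and -0.16 (SE 0.25). Ski, which represses Smad targets, differed by -0.23 (SE 0.18), and Smad7, the feedback inhibitor, by 0.17 (SE 0.23).

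Genes listed as responding to TGF-beta lay on the higher side in heterozygous hosts. Of 14 tested, 11 were higher and 3 lower, with a median of 0.31 against 0.000628 over all genes, and 0 had an unadjusted p under 0.05. In irradiated hosts their median was 0.27. Postn, periostin of the tumour matrix, lay at 11.09 to 13.38 (median 12.86) in heterozygous and 10.88 to 12.74 (median 11.60) in wild-type tumours. 3 of 6 heterozygous tumours, numbers 1, 2 and 6, lay above all wild-type tumours, and the difference was 0.76 (SE 0.39, limma adjusted p = 0.952). Tagln, transgelin of contractile fibroblasts and smooth muscle, differed by 0.87 (SE 0.58). Ccn2, connective tissue growth factor, differed by 0.39 (SE 0.32), with heterozygous tumour 3 lowest at 10.79. Id3, a helix-loop-helix inhibitor, differed by 0.72 (SE 0.56), and the related members Id1 and Id2 by 0.39 and -0.37. The direction in which each member responds to TGF-beta in these tumours was not measured. Without heterozygous tumour 6 the list median was 0.05. The fibroblast mean moved with it, at 12.11 and 12.01 in heterozygous tumours 2 and 6 and at most 11.71 in the other 13. Under the alternative settings, which include a fit with the fibroblast mean as a covariate, the list median ran from 0.02 to 0.56. The list median of that fit alone is not singled out here, and the part of fibroblast content in this difference was not tested.

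Basal epithelial genes gave the largest list median of the comparison. Of 14 tested basal and myoepithelial genes, 12 were higher in heterozygous hosts and 2 lower, with a median of 1.06, and 0 passed the adjusted threshold. 5 had an unadjusted p under 0.05, all higher, where 2.82% of all genes did. The list was chosen with earlier results of these tumours known, so its direction is not independent evidence. In irradiated hosts 12 of 14 were also higher, with a median of 0.41 and 1 gene at an unadjusted p under 0.05, where 5.6% of all genes were.

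The basal difference was carried by 3 of the 6 heterozygous tumours. Krt5, the keratin of basal cells, was 10.93 in heterozygous tumour 1, 12.89 in tumour 2 and 9.46 in tumour 5, and 5.73, 7.25 and 5.59 in tumours 3, 4 and 6. The 9 wild-type tumours lay at 5.53 to 7.60 (median 6.75), so 3 heterozygous tumours stood above all of them and 3 lay within their range. The mean difference was 2.07 (SE 0.81, limma adjusted p = 0.872), with an SD of 2.96 among heterozygous and 0.78 among wild-type tumours.

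Col17a1, the collagen of hemidesmosomes that anchors basal cells to their membrane, had the same 3 tumours on top. It was 10.99, 11.31 and 9.84 in heterozygous tumours 1, 2 and 5 and 4.62, 6.63 and 5.06 in tumours 3, 4 and 6. Wild-type tumours lay at 3.96 to 6.73 (median 4.81), and the difference was 2.98 (SE 0.97, limma adjusted p = 0.872). In irradiated hosts it was 0.37. The interaction of 2.61, which contains the same sham difference, had an unadjusted limma p of 0.034 and did not pass the adjusted threshold.

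Trp63, which encodes p63, the transcription factor that maintains basal identity, was 10.19, 9.92 and 8.89 in heterozygous tumours 1, 2 and 5 and 7.12, 6.97 and 4.54 in tumours 3, 4 and 6. Its wild-type tumours lay at 4.09 to 7.65 (median 5.45). The difference was 2.32 (SE 0.82, limma adjusted p = 0.872). Of the other 3 Trp63 probe sets, whose mean levels were 4.04 to 5.05, the differences were 0.08, 0.52 and 1.22.

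Krt14, the partner of Krt5, differed by 1.12 (SE 1.02). It was 11.39, 13.52 and 11.02 in heterozygous tumours 1, 2 and 4, above every wild-type tumour, which lay at 6.11 to 10.71. Heterozygous tumour 5, at 10.57, lay within the wild-type range, and tumour 3, at 4.96, lay below it. Lama3, a chain of the laminin under basal cells, differed by 1.81 (SE 0.89), again with tumour 3 apart at 4.87. Jag2, a Notch ligand, differed by 0.61 (SE 0.25). With each tumour left out in turn the basal median ran from 0.66, without heterozygous tumour 2, to 1.5, without heterozygous tumour 3. Without wild-type tumour 5 and heterozygous tumour 3, an exclusion chosen after seeing the data, it was 1.73. In that fit 8 of 14 members were higher at an unadjusted limma p under 0.05, where 455 of 12786 genes were. Heterozygous tumour 3 had the lowest basal list mean of its group, 7.12. The b-actin 3′ excess was 0.51, 0.75 and 0.80 in heterozygous tumours 1, 2 and 5. It was 0.60, 0.40 and 0.57 in tumours 3, 4 and 6, and its part was not tested.

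**Figure D3:**
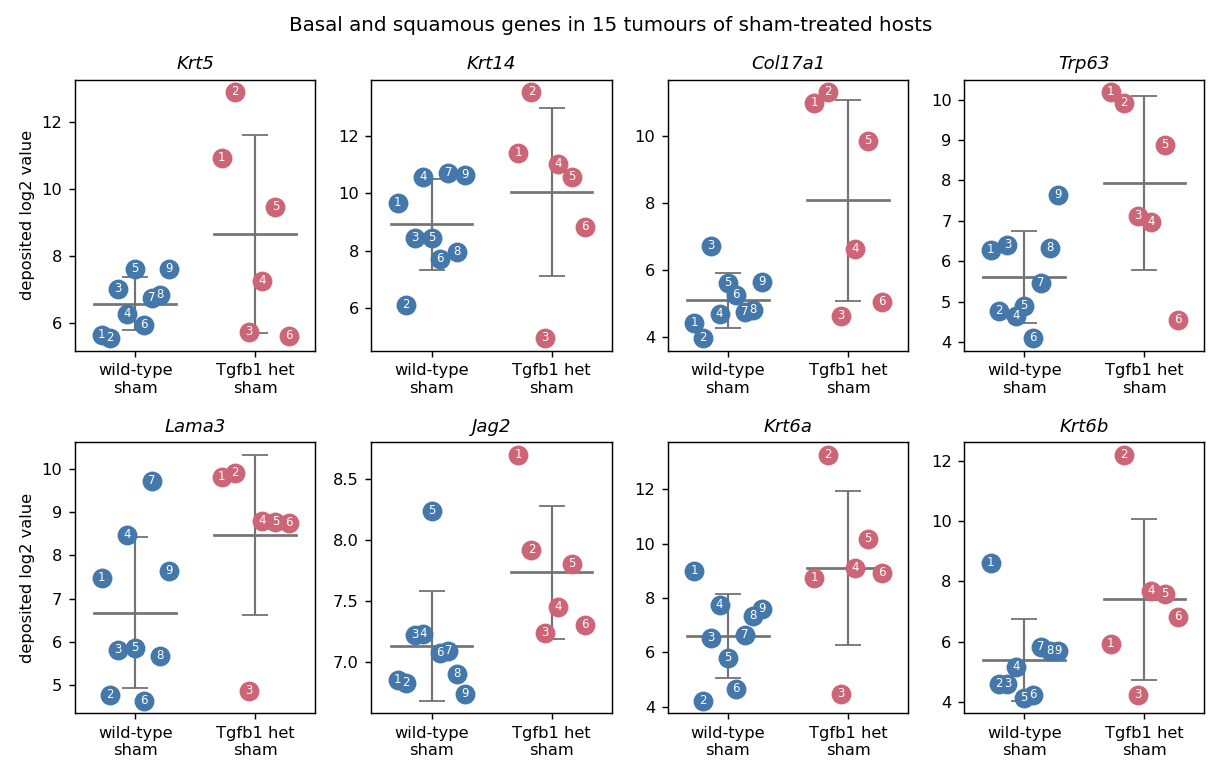
Basal (Krt5, Krt14, Col17a1, Trp63, Lama3, Jag2) and squamous (Krt6a, Krt6b) genes in the 15 tumours, in deposited log2 values, with repeat numbers inside the points and bars showing mean ± SD. Heterozygous tumours 1, 2 and 5 lie above all 9 wild-type tumours for Krt5, Col17a1 and Trp63, and tumours 3 and 6 lie within the wild-type range.

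Because Krt5 and Krt14 are the keratin pair of basal cells and Trp63 was high in the same tumours as Krt5, the 250 bases upstream of each keratin start are shown from RefSeq (GRCm38.p6, 5′ to 3′ in the direction of transcription). Capitals mark a match to the 10-base half-site of the p53 family, to which p63 belongs, a pattern that reads the same on both strands.
Krt5, chr15:101712906-101713155, minus strand: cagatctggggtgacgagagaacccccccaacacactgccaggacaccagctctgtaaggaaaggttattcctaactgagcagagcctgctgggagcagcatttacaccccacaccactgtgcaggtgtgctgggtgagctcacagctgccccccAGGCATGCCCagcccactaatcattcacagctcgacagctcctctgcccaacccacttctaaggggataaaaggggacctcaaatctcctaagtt
Krt14, chr11:100206031-100206280, minus strand: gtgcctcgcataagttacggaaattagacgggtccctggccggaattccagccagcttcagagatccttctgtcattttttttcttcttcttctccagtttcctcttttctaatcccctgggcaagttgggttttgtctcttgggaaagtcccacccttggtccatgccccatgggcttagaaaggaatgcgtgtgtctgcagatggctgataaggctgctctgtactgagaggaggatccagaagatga
The Krt5 window holds 1 match, AGGCATGCCC, and the Krt14 window holds 0. Of 32851 RefSeq windows of this length 7.1% hold a match, and of the 8 tested basal genes with a window 1 does. A match is a description of the letters and says nothing of binding.

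Squamous genes mark keratinizing areas of a tumour. Of 18 listed, 17 were on the array and 9 passed the level filter and were tested. All 9 were higher, with a median of 0.76. 3 had an unadjusted p under 0.05, where 2.82% of all genes were higher at that p, and 0 passed the adjusted threshold. In irradiated hosts 5 were higher and 4 lower, with a median of 0.02. Krt6a, a keratin of activated squamous cells, lay at 4.45 to 13.28 (median 9.01) in heterozygous and 4.20 to 8.98 (median 6.65) in wild-type tumours. Tumours 2, 4 and 5 lay above all wild-type tumours and tumour 3 near the lowest. The difference was 2.50 (SE 1.09, limma adjusted p = 0.924). Krt6b, its close paralog, which shares sequence and may share signal, differed by 2.01 (SE 0.90), with heterozygous tumour 2 at 12.20. Krt10, of mature squamous layers, differed by 0.44 (SE 0.30), and Sprr3, of the cornified envelope, by 0.25 (SE 0.11) at levels of 4.43 to 5.57, under the arrays' medians of 5.86 to 5.96. Without wild-type tumour 5 the squamous median was 0.44, and without wild-type tumours 5 and 6 it was 0.37.

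Luminal epithelial genes had a median of 0.07 over 16 members, with 11 higher, 5 lower and 0 at an unadjusted p under 0.05. This direction rested on single tumours. The luminal median was -0.32 without wild-type tumour 6 and 0.32 without heterozygous tumour 6, and without wild-type tumours 5 and 6 it was -0.60, with 15 of 16 lower. The labelled tissue is a mammary tumour, and the luminal keratins Krt8 and Krt18 were bright in all 15, at 11.65 to 13.80 and 10.83 to 13.95. Their differences were 0.05 (SE 0.65) and 0.03 (SE 0.58). Krt19 differed by 0.59 (SE 0.76), the splicing regulator Esrp1 by 0.47 (SE 0.89) and the tight junction gene Cldn3 by -0.45 (SE 0.92). Cldn3 was 7.42 in wild-type tumour 6, 8.79 in heterozygous tumour 2 and 9.37 in heterozygous tumour 6, against 9.95 or more in the others.

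Genes of hormone-sensing luminal cells were higher in 8 of 8 members tested (13 listed, 9 on the array). Their median was 0.77 in sham and 0.74 in irradiated hosts. 1 had an unadjusted p under 0.05, where 2.82% of all genes were higher at that p, and 0 passed the adjusted threshold. Wnt4, the progesterone-induced Wnt ligand, lay at 6.33 to 10.34 (median 8.28) in heterozygous and 6.06 to 8.03 (median 6.43) in wild-type tumours. Tumours 2, 3 and 5 lay above all wild-type tumours, and the difference was 1.34 (SE 0.58, limma adjusted p = 0.924). A second Wnt4 probe set differed by 1.30. Pgr, the progesterone receptor, was 10.49 in heterozygous tumour 5 and 8.35 or less in all others, a difference of 0.88 (SE 0.83). Esr1, the estrogen receptor, differed by 0.07 (SE 0.60), Tbx3 by 1.38 (SE 0.75) and Gata3, the luminal transcription factor, by 0.60 (SE 0.54). Without heterozygous tumour 5 the list median was 0.25.

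In the Wnt list 16 of 20 members were higher, with a median of 0.22. Over all genes 2.82% were higher at an unadjusted p under 0.05, and in this list 1 of 20 was. That gene was Axin2, a feedback inhibitor and common readout of canonical Wnt signalling. It lay at 6.70 to 9.24 (median 7.20) in heterozygous and 5.57 to 7.19 (median 6.57) in wild-type tumours. Tumours 3 and 2, at 9.24 and 8.38, were far above the rest, and tumours 1, 4 and 6 lay within the wild-type range. The difference was 1.10 (SE 0.35, limma adjusted p = 0.872), and 0.30 in irradiated hosts. A dimmer second Axin2 probe set, at a mean level of 3.62, differed by 0.18. Among ligands, Wnt10a was 9.36 and 10.17 in heterozygous tumours 1 and 2 and at most 7.31 in the others, a difference of 1.28 (SE 0.76). Wnt6 differed by 0.78 (SE 0.40), with tumour 1 at 8.61, Wnt5a by 0.90 (SE 0.83) and Wnt2 by 0.31 (SE 0.48).

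Igfbp2, a secreted binding protein of insulin-like growth factors, was high in all 6 heterozygous tumours. It lay at 9.39 to 11.34 (median 9.80) in the 6 heterozygous tumours and at 6.07 to 9.81 (median 7.44) in the 9 wild-type ones. Wild-type tumour 3, at 9.81, was the 1 wild-type tumour inside the heterozygous range, and the next wild-type tumour lay at 8.48. The difference was 2.62 (SE 0.79), with a limma unadjusted p of 0.00176 and an adjusted p of 0.872, and it ran from 2.38 to 2.91 with each tumour left out. In irradiated hosts Igfbp2 differed by -0.11, and the interaction of 2.73 had an unadjusted p of 0.00732 (limma adjusted p = 1). The Igf list as a whole had 7 of 11 members higher and a median of 0.15, or -0.04 without heterozygous tumour 2. Igf2r, the receptor that clears Igf2 and binds latent TGF-beta, differed by -0.68 (SE 0.31). The ligands Igf1 and Igf2 differed by -0.41 (SE 0.60) and 0.72 (SE 1.14), Igf2 being 12.57 in heterozygous tumour 4 and 11.57 in wild-type tumour 4. Igfbp3 differed by 0.75 (SE 0.51).

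Fibroblast and collagen genes were higher in 16 of 18 members, with a median of 0.31 and 0 at an unadjusted p under 0.05. Col1a1 and Col1a2, the chains of type I collagen, differed by 0.66 (SE 0.49) and 0.20 (SE 0.37), and tumours 2 and 6 lay above all wild-type tumours for both. Fbln1, a fibulin of the matrix, differed by 0.90 (SE 0.54) and Col5a2 by 0.49 (SE 0.42). Without heterozygous tumour 2 the list median was -0.01. Of 15 mesenchymal genes 12 were higher, with a median of 0.21, which was -0.06 without heterozygous tumour 6, 0.59 without heterozygous tumour 3 and 0.85 without wild-type tumour 5 and heterozygous tumour 3. Snai2, a transcription factor of basal and mesenchymal cells, was 11.72, 11.83 and 10.58 in heterozygous tumours 1, 2 and 5 and at most 10.00 in all others, a difference of 1.79 (SE 0.84, limma adjusted p = 0.924). Its high tumours were those of Krt5. Vim and Zeb1 differed by 0.26 (SE 0.45) and 0.15 (SE 0.74), Cdh2, N-cadherin, by 1.93 (SE 1.08) and Twist2 by 0.58 (SE 0.50).

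Adipocyte genes ran the other way between sham and irradiated hosts. In sham hosts all 10 tested were lower in tumours of heterozygous hosts, with a median of -0.59, and 1 had an unadjusted p under 0.05. In irradiated hosts all 10 were higher, with a median of 0.77 and 5 at an unadjusted p under 0.05. Over all genes 2.46% were lower at that p in sham hosts, and 5.6% were at that p in either direction in irradiated hosts. The interaction had an unadjusted p under 0.05 in 7 of 10 members, where 4.83% of all genes did, and 0 passed the adjusted threshold. Adipoq, adiponectin, lay at 3.84 to 8.19 (median 5.32) in heterozygous and 3.70 to 10.19 (median 7.20) in wild-type tumours, so the groups overlapped widely, and the difference was -1.32 (SE 0.90). Cd36, a fatty acid transporter also found on vessels and macrophages, differed by -1.15 (SE 0.55), set against 1.01 in irradiated hosts. Cidec, a lipid droplet protein, differed by -0.81 (SE 0.50) and the lipase Pnpla2 by -0.52 (SE 0.28). These markers can come from fat beside the tumour, and the amount of fat in each piece was not measured here. Without wild-type tumours 5 and 6, 8 of 10 were lower. The highest adipocyte list means were those of wild-type tumours 3, 5 and 9, at 8.13, 9.11 and 8.93. All other wild-type tumours lay at 6.45 to 7.59, within the heterozygous range of 6.04 to 7.95.

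**Figure D4:**
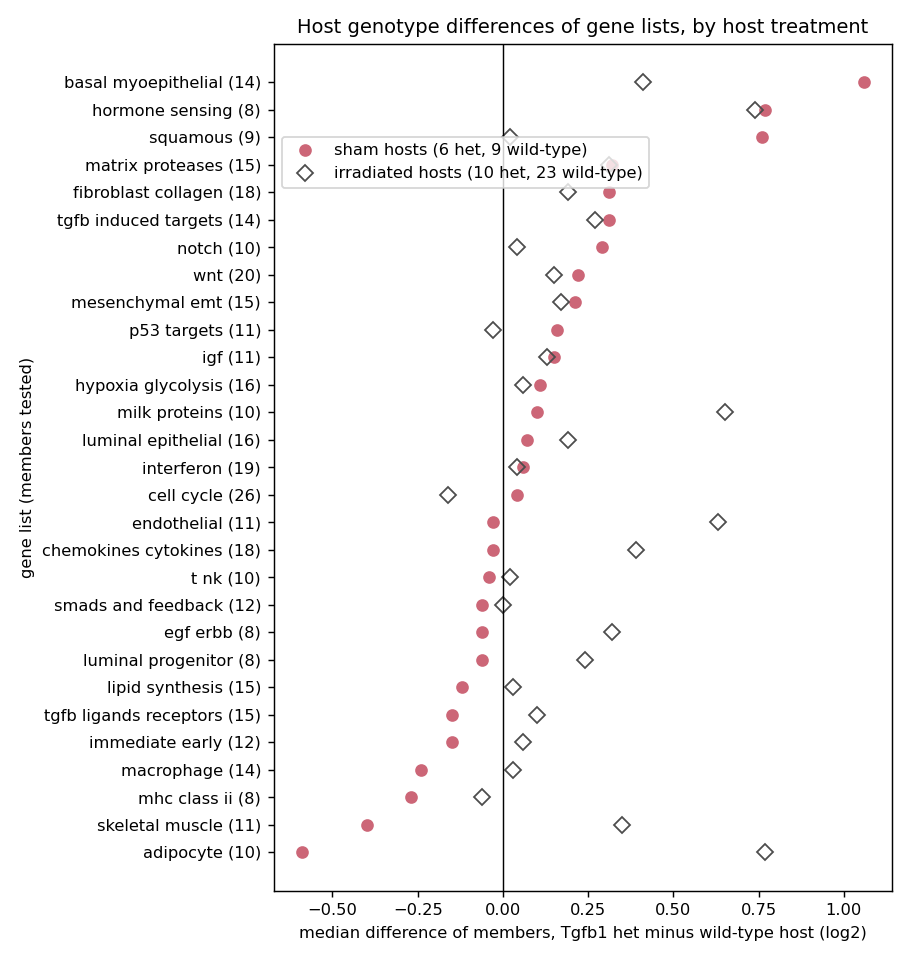
Median difference between tumours of heterozygous and wild-type hosts for each list with at least 8 tested members, in log2 units, for sham hosts (filled) and irradiated hosts (open). The basal list has the highest sham median, 1.06, and the adipocyte list the lowest, -0.59, with 0.77 in irradiated hosts.

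Immune genes showed small medians. Macrophage genes were lower in 12 of 14 members, with a median of -0.24 and 0 at an unadjusted p under 0.05. Without wild-type tumour 6 the macrophage median was -0.07, and without wild-type tumours 5 and 6 it was also -0.07, with 9 of 14 lower. Adgre1, a macrophage surface receptor, differed by -0.15 (SE 0.31), Cd68 by -0.50 (SE 0.34), the complement gene C1qb by -0.45 (SE 0.32) and Cd14 by -0.69 (SE 0.55). Class II MHC genes were lower in 7 of 8 with a median of -0.27, or -0.04 without heterozygous tumour 6. T and NK cell genes had a median of -0.04 over 10 members, interferon-induced genes 0.06 over 19 and chemokines and cytokines -0.03 over 18. Each of these 3 turned in sign with a tumour left out, to 0.14 without wild-type tumour 6, -0.20 without heterozygous tumour 4 and 0.16 without heterozygous tumour 3. Endothelial genes had a median of -0.03 over 11, with wild-type tumour 5 far above the rest. Without that tumour the endothelial median was 0.49, and without wild-type tumours 5 and 6 it was 0.64, with 11 of 11 higher. It was -0.31 without heterozygous tumour 2.

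Cell cycle genes were nearly balanced, with 15 higher, 11 lower and a median of 0.04, whereas in irradiated hosts 0 of 26 were higher and the median was -0.16. The proliferation marker Mki67 differed by 0.04 (SE 0.22) and the topoisomerase Top2a by -0.03 (SE 0.26). Foxm1, which drives mitotic genes, differed by -0.54 (SE 0.23) and Mcm3, of the replicative helicase, by 0.46 (SE 0.20). These 2 of 26 members had an unadjusted limma p under 0.05, 1 on each side. At that p 2.82% of all genes were higher and 2.46% lower. E2f1 differed by -0.24 (SE 0.18).

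Genes that p53 induces in other cells were 8 higher and 3 lower, with a median of 0.16, in these tumours of p53-null tissue. Phlda3, an inhibitor of Akt, lay at 8.94 to 10.52 (median 9.84) in heterozygous and 7.49 to 9.92 (median 8.68) in wild-type tumours. 3 of 6 heterozygous tumours, numbers 1, 2 and 6, lay above all wild-type tumours. Phlda3 differed by 1.19 (SE 0.42, limma adjusted p = 0.872), against -0.10 in irradiated hosts. Its unadjusted limma interaction p was 0.0153, and the interaction did not pass the adjusted threshold. Cdkn1a and Mdm2, the classical targets, differed by 0.23 (SE 0.40) and 0.16 (SE 0.15), and Sesn2 and Zmat3 by 0.29 (SE 0.17) and 0.29 (SE 0.22). In the hypoxia and glycolysis list 10 were higher and 6 lower, with a median of 0.11, or -0.04 without heterozygous tumour 3. Its 2 members with an unadjusted p under 0.05 were lower, where 2.46% of all genes were. These were Egln3, an oxygen-sensing hydroxylase, at -1.11 (SE 0.46), and Aldoa, aldolase, at -0.32 (SE 0.15). Egln3 was 7.01 in heterozygous tumour 2. Vegfa and Slc2a1, the glucose transporter, differed by 0.54 (SE 0.33) and 0.43 (SE 0.25).

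Flrt1, a membrane protein of the fibronectin leucine-rich repeat family, had the smallest p of all genes. It lay at 5.17 to 6.40 (median 5.44) in heterozygous and 4.66 to 5.18 (median 4.89) in wild-type tumours. 5 of 6 heterozygous tumours lay above all 9 wild-type tumours, and tumour 4, at 5.17, lay just under the highest. The difference was 0.64 (SE 0.13, limma adjusted p = 0.123), and its levels were under the arrays' medians except in tumour 2. Without heterozygous tumour 4 it was 0.72 and passed (limma adjusted p = 0.0266). It also passed with the endothelial mean as a covariate (0.65, limma adjusted p = 0.0327) and without wild-type tumour 5 and heterozygous tumour 3 (0.73, limma adjusted p = 0.0458). A dimmer second Flrt1 probe set, at a mean level of 3.10, differed by 0.11.

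The next genes of smallest p on the higher side were Ikzf4, a zinc finger factor of the Ikaros family, at 0.71 (SE 0.17, limma adjusted p = 0.328), Ston2, an endocytic adaptor, at 1.43 (SE 0.36), and Msrb3, a methionine sulfoxide reductase, at 1.40 (SE 0.37). Ikzf4 was highest in heterozygous tumour 3, at 7.03, and 4 of 6 heterozygous tumours exceeded every wild-type tumour. Dimmer probe sets of these genes differed by less: 0.55 and 0.01 for Ikzf4, 0.26 for Ston2 and 0.29 for Msrb3. Arhgap42 differed by 1.32 (SE 0.38) and was 12.58, 11.54 and 11.18 in tumours 3, 2 and 5. Ajuba, a LIM protein of junctions and the Hippo pathway, differed by 1.18 (SE 0.34), and Gpr161, a ciliary receptor that restrains Hedgehog signalling, by 1.43 (SE 0.42). The other 5 of the first 12 were Tsks, Rimklb, Grip2, Gmeb1 and Sarnp, with differences of 0.35 to 0.60.

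On the lower side G6pc3, a glucose-6-phosphatase subunit of the endoplasmic reticulum, had the smallest p. It lay at 8.08 to 8.90 (median 8.54) in heterozygous and 8.85 to 9.68 (median 9.10) in wild-type tumours, and 5 of 6 heterozygous tumours lay below all wild-type tumours. The difference was -0.65 (SE 0.15, limma adjusted p = 0.328). Tet3, a 5-methylcytosine dioxygenase, differed by -0.75 (SE 0.18) and Edem2, which marks misfolded glycoproteins for disposal, by -0.70 (SE 0.18), each with 5 of 6 heterozygous tumours below all wild-type tumours. Lmcd1, a LIM protein, had the largest difference among these, -2.01 (SE 0.58), with heterozygous tumour 3 at 4.88 and wild-type tumour 3 at 11.42. In irradiated hosts Lmcd1 differed by 0.51. The other 8 were Siae, Lsm12, Poli, Lpcat3, Isca1, Dram2, Capns1 and Dhrs13, with differences of -0.79 to -0.48.

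**Figure D5:**
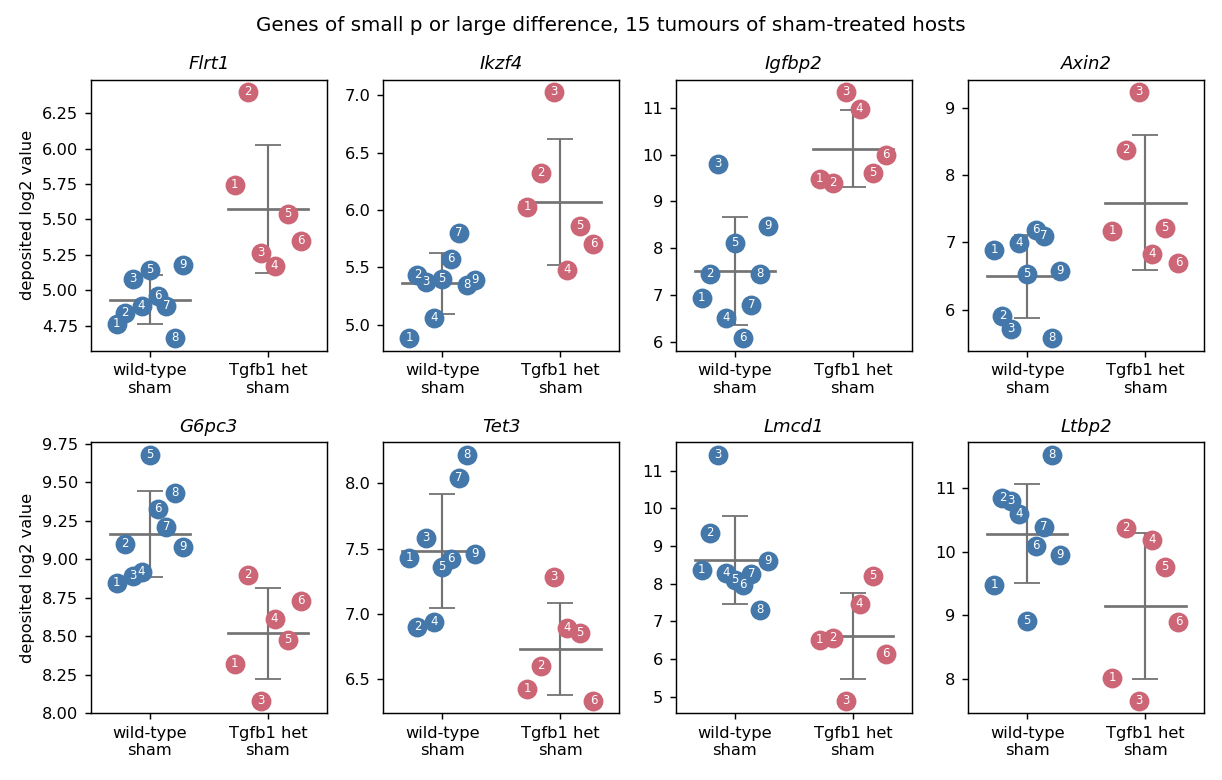
Genes with small p or large differences in the 15 tumours, in deposited log2 values, with repeat numbers inside the points and bars showing mean ± SD. Flrt1, Ikzf4, Igfbp2 and Axin2 average higher in heterozygous tumours and G6pc3, Tet3, Lmcd1 and Ltbp2 lower, and in each panel the groups overlap by at least 1 tumour.

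4 genes, chosen after their values were seen, had no overlap between the groups. By chance 1 of 5005 arrangements of these tumours puts all 6 above all 9, so a few such genes can arise by chance among 12786. Serpinb6e, a serine protease inhibitor of the ovalbumin type, Baz2a, a chromatin remodelling subunit, and Gfra2, a neurturin receptor, were above all 9 wild-type tumours in all 6 heterozygous ones, 3 of 12786 genes (0.0235%). Their differences were 0.29 (SE 0.09), 0.37 (SE 0.13) and 0.25 (SE 0.09). Serpinb6e lay at 7.71 to 8.11 against 7.42 to 7.71, so its groups nearly touched, and it belongs to a family of similar genes that can share probes. Qpctl, a glutaminyl cyclase of the Golgi, lay at 6.37 to 6.54 in heterozygous and 6.64 to 7.41 in wild-type tumours, the 1 gene wholly below (0.00782%), with a difference of -0.49 (SE 0.15). All 4 had a limma adjusted p of 0.872.

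Whether the host genotype difference itself changed between sham and irradiated hosts was tested as an interaction. No gene passed (0%, smallest limma adjusted p = 1), and 617 genes had an unadjusted p under 0.05 (4.83%). The 4 genes of smallest interaction p were Ikzf4 (0.86), G6pc3 (-0.71), Siae (-0.94) and Synm, an intermediate filament protein of muscle and basal cells (-2.11). Synm differed by -0.92 (SE 0.47) in sham and by 1.18 in irradiated hosts, where 1 gene in all passed the adjusted threshold (0.00782%).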

How the data were processed

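The authors deposited log2 values for the 48 tumours and linear intensity for 17 mammary glands, both produced by RMA (background correction, normalization across arrays, probe summary) per the submitters' processing notes. The sources used here do not give its version or settings. The number of arrays limits the precision. RNA was extracted with Trizol and 100 ng labelled, per the labels' protocols. The glands were not used.

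Of 45101 probe sets, 34958 have 1 gene in the platform annotation, 932 several and 9211 none, and 99.4% of gene identifiers matched RefSeq (GRCm38.p6). For each of 18194 genes the brightest probe set, by mean over the 48 tumours, was kept, and genes with a mean below the 40th percentile (5.14) were left out. Array medians were 5.84 to 5.96.

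Groups came from titles. 1 irradiated wild-type tumour has conflicting treatment labels, was placed by its title and was varied in 2 alternatives. Each group had a mean in 1 limma fit (limma 3.58.1, R 4.3.3) of all 48 tumours, with a variance trend and 44 residual degrees of freedom. Tests were two-sided, with Benjamini-Hochberg adjustment over all genes and a threshold of 0.05. The fit was tested on simulated data. No arrays were identical. Nothing in the labels says that tumours came from separate donors, so p-values measure the spread between these tumours, part of which may be technical.

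Members and gene lists were chosen with earlier results of these data known. Named were Tgfb1, the 12 higher and 12 lower genes of smallest p, and 4 of smallest interaction p. Of each list described by name these were the first 2 members as written, where tested, and the 3 of smallest p. Acvrl1, Lama3, Jag2 and the genes without overlap between the groups were named in addition. Alternatives changed the samples, filter, probe sets, normalization, variance model, weights and covariates, and left out each tumour in turn.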

Additional observations from a re-analysis of the deposited data

Results flagged for a closer look

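In groups of this size a tumour was marked when its gap to the nearest other tumour took up an unusually large part of the range of its group (Dixon's criterion at 95%). Chance gives about 5% of groups such a gap, or 14 of the 272 examined here, and 17 were found.

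Wild-type tumour 5 accounted for 6 of them. It was highest of its group for the endothelial list mean (11.73, next 8.03), Acvrl1 (8.79, next 6.29), Tgfb1 (11.33, next 9.49), Jag2 (8.24, next 7.23) and Slc2a1 (12.70, next 11.49), and lowest for Sarnp (9.83, next 10.62).

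Heterozygous tumour 3 was highest of its group for Tgfb2 (10.34, next 9.00) and lowest for Lama3 (4.87, next 8.74) and Ccn2 (10.79, next 12.36). Heterozygous tumour 1 was highest for Wnt6 (8.61, next 6.64) and Sarnp (11.93, next 11.22), and heterozygous tumour 2 lowest for Egln3 (7.01, next 9.11).

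Among the other wild-type tumours, number 1 was highest for Krt6b (8.60, next 5.82), number 3 for Lmcd1 (11.42, next 9.35) and Wnt6 (6.77, next 6.10), and number 4 for Igf2 (11.57, next 8.51). Wild-type tumour 9 was lowest for Sprr3 (4.43, next 5.05). No gene had a tested difference in host effect between sham and irradiated hosts (limma adjusted p of 1 for the smallest interaction), with 617 at an unadjusted p under 0.05.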

How the results depend on the processing

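The number of genes past the threshold stayed at 0 on the lower side in all 16 alternatives and 15 leave-one-out fits. On the higher side it was 1, Flrt1, with the endothelial list mean as a covariate and without wild-type tumour 5 and heterozygous tumour 3, both chosen after seeing the data, and 0 in the other 14. With each tumour left out it ran from 0 to 1, the 1 being without heterozygous tumour 4. Genes at an unadjusted p under 0.05 numbered 1120 of 18194 tested with no filter. They numbered 1052 of 12786 without wild-type tumours 5 and 6, an exclusion also chosen after seeing the data. In a fit of only the 15 sham-host tumours, 253 of 12786 genes were higher and 210 lower at that p. The interaction count was 0 throughout. The exact permutation p of Tgfb1 ran from 0.0163 (without wild-type tumour 2) to 0.201 (without heterozygous tumour 3), and was 0.03 without heterozygous tumour 2. The Tgfb1 difference was -0.59 to -1.11 with each tumour left out, -0.51 with the mean of probe sets, -0.57 with array weights and -0.59 without wild-type tumours 5 and 6.

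The same repeat numbers occur in both groups, and same-numbered tumours correlated at -0.434 to 0.631 in their deviations over 6 pairs. The highest value was that of the tumours numbered 6. The labels do not say whether same-numbered tumours shared a donor or a batch, and these correlations cannot decide it. With the replicate block, 0 genes passed and 423 had an unadjusted p under 0.05, and Vim was at -0.16, Zeb1 at -0.29 and Cldn3 at 0.03, turned in sign.

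Of 33 list medians, 22 changed sign with a tumour left out or under another alternative, and 11 kept their sign throughout, among them basal (0.66 to 1.73), squamous (0.37 to 0.94), adipocyte (-0.72 to -0.37) and macrophage (-0.37 to -0.07). Those that turned include luminal epithelial (-0.60 without wild-type tumours 5 and 6), endothelial (0.79 without wild-type tumour 5 and heterozygous tumour 3), mesenchymal (-0.06 without heterozygous tumour 6) and fibroblast (-0.01 without heterozygous tumour 2). Of 103 named genes, 13 changed sign under some alternative, all near 0 or with wide errors, and the cause was not tested. These were Top2a with the mean of probe sets (0.04), Krt18 (-0.04) and Mki67 (-0.01) with array weights, and Krt18 (-0.01) and Top2a (0.02) with the tumour of conflicting labels counted as wild-type sham. With the luminal covariate Krt8 was 0 and Krt18 -0.01, with the endothelial covariate 0 and -0.02, and with the fibroblast covariate Esr1 was -0.14, Col1a2 -0.05, Zeb1 -0.34 and Cldn3 0.04. Without wild-type tumours 5 and 6 Igf1 was 0.08, Krt8 -0.21, Krt18 -0.51, Esrp1 -0.48, Adgre1 0 and Mki67 -0.17. Without wild-type tumour 5 and heterozygous tumour 3 Tgfb2 was -0.05, Igf1 0.19, Krt8 -0.12, Krt18 -0.28, Mki67 -0.07 and Top2a 0.06. With each tumour left out 11 genes changed sign, with ranges of -0.23 to 0.52 for Esr1, -0.10 to 0.52 for Wnt2, -0.14 to 1.24 for Igf2, -0.02 to 0.41 for Col1a2, -0.32 to 0.55 for Zeb1, -0.13 to 0.24 for Krt8, -0.24 to 0.32 for Krt18, -0.11 to 0.90 for Esrp1, -0.95 to 0 for Cldn3, -0.13 to 0.15 for Mki67 and -0.16 to 0.14 for Top2a.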
